A study of Mus musculus with 6 samples.

Results

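The 9 genes described here, *Clec9a*, *Batf3*, *Irf8*, *Zbtb46*, *Cd209a*, *Siglech*, *Ccr7*, *Fscn1* and *Ccl22*, mark the subsets and the mature state of dendritic cells, and all 9 were found among the 31053 genes of the count table. Their transcripts were followed across the 12 cell labels of the deposited annotation, whose names (such as T cell EFF, T cell MEM and ILC) are kept as deposited, and their detection in the same cells was followed inside the label DC, which held 556 of 33961 cells. The cells were CD45-enriched infiltrates of tumors that the mouse colon carcinoma line CT26 formed under the skin of female Balb/c mice, which were 5 to 6 weeks old when obtained. The labels list 6 samples in 3 groups of 2: vehicle, and a low and a high dose of a bispecific molecule that joins an antibody against mouse PD-1 to mouse GITR ligand, with tumors taken 5 days after treatment. By the labels the high dose was 30 mg/kg, and for the low dose 1 label gives 10 mg/kg and another 30 mg/kg. The study's paper gives another dose, and an isotype control, for its single-cell experiment. Each cell belongs to 1 of 4 libraries (M1, M2, M5 or M6), which the labels do not tie to a sample, so no treatment groups were compared, and levels are given by library or pooled over the libraries.

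Dendritic cells take up antigen and present it to T cells. Conventional type 1 cells (cDC1) depend on the transcription factors *Irf8* and *Batf3*, bind dead cells through the lectin *Clec9a* and cross-present to CD8+ T cells, while type 2 cells (cDC2) mainly serve CD4+ T cells. Plasmacytoid cells (pDC) carry the lectin *Siglech* and make type I interferon. Conventional cells that mature switch on *Ccr7*, the receptor that guides them to lymph nodes, along with the actin-bundling protein *Fscn1* and the chemokine *Ccl22*, and such cells are found in many tumors.

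The stretches of DNA just before the starts of 3 of the genes are shown because *Fscn1* and *Ccl22* were found in the same cells and *Siglech* was found with them less often than its share gave. They come from RefSeq on GRCm38.p6, on the plus strand, 5′ to 3′. Each ends where the gene begins in GENCODE, which lies before the RefSeq start. Capitals mark a match to the NF-kB motif (GGGA, 4 bases of any kind, CC) in *Ccl22* and to the E-box CAGGTG in *Siglech*, each searched on both strands. *Fscn1* holds neither.
Ccl22, chr8:94745434-94745589: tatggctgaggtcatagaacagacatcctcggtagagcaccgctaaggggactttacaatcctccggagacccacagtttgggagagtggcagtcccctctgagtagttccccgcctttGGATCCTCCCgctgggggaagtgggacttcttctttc
Fscn1, chr5:142960105-142960342: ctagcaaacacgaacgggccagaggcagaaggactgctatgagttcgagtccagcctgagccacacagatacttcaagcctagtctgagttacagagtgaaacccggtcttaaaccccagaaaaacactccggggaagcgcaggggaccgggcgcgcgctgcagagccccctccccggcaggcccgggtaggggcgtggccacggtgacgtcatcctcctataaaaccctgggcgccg
Siglech, chr7:55767934-55768177: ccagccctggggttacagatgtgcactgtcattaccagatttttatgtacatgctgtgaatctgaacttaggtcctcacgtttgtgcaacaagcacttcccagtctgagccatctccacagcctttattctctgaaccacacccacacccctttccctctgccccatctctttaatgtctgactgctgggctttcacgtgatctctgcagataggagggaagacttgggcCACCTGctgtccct

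The RefSeq window of a gene covers 250 bases before its RefSeq start. Among the 8 members with a window, the NF-kB motif was present in *Ccl22*, 131 bases before that start, and in 1 of the 2 windows of *Irf8*. It was present in 17.63% of all 32851 windows. The E-box was present in *Siglech*, 20 bases before the RefSeq start, in *Zbtb46* and in the other window of *Irf8*, against 17.22% of all windows. The AP-1 motif TGANTCA was present in *Zbtb46* alone of the members and in 6.749% of all windows. *Clec9a*, *Batf3*, *Cd209a* and *Fscn1* held none of the 3 motifs. These matches describe letters, not bound sites.

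The cells labelled DC numbered 140, 153, 129 and 134 in M1, M2, M5 and M6, between 1.36% and 1.80% of each library, with a median of 9549 UMIs (unique molecular identifiers, which count captured mRNA molecules) per cell. In the same libraries 111 cell barcodes occurred more than once, and 3 DC cells carried such a barcode. Markers of other cells were checked as lists, whose summed levels are given in UMIs per 1000000 UMIs (CPM). All 12 macrophage and monocyte markers were detected in DC cells, at 1093 CPM summed (936 to 1226 over the libraries) against 11532 in Myeloid cells. The 4 stroma and tumor markers summed to 198 CPM (29.6 to 330) against 1570 in Stroma, and the 6 T cell markers to 266 CPM (128 to 456) against 4028 in the label T cell EFF. The 3 neutrophil markers summed to 106 CPM (4.57 to 338), the 4 NK markers to 137 CPM (78.6 to 205), the 4 B cell markers to 8.58 CPM (3.72 to 21.5), and the 3 mast cell markers to 61.3 CPM (45.2 to 73.8), nearly all from *Kit* at 60.2 CPM, with *Fcer1a* at 0. The part that such RNA has in the levels below was not tested, except where the groups with and without it are set side by side.

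Of the 9 genes, 7 had their highest pooled level in DC. In each of the 4 libraries, 4 genes (*Clec9a*, *Cd209a*, *Siglech* and *Ccl22*) were at least 2-fold higher in DC than in every other label. Only labels of at least 50 cells over all libraries were compared. By this 2-fold rule 133 of 15977 genes were higher in DC, 0.832% of those with enough UMIs. The share of all genes with their highest pooled level in DC was not counted, so the 7 has no such background. The labels were assigned by the study's authors from the correlation of whole cell profiles with sorted reference populations. The 9 genes were part of those profiles, so the difference between DC and the other labels is a description, with no test. The median log2 ratio of DC to the next label, with 1 CPM added to both, was 2.07 for the 9 genes and -0.89 for all genes. Since the next label is the highest of the others, a negative ratio does not mark a gene as low in DC.

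**Figure D1:**
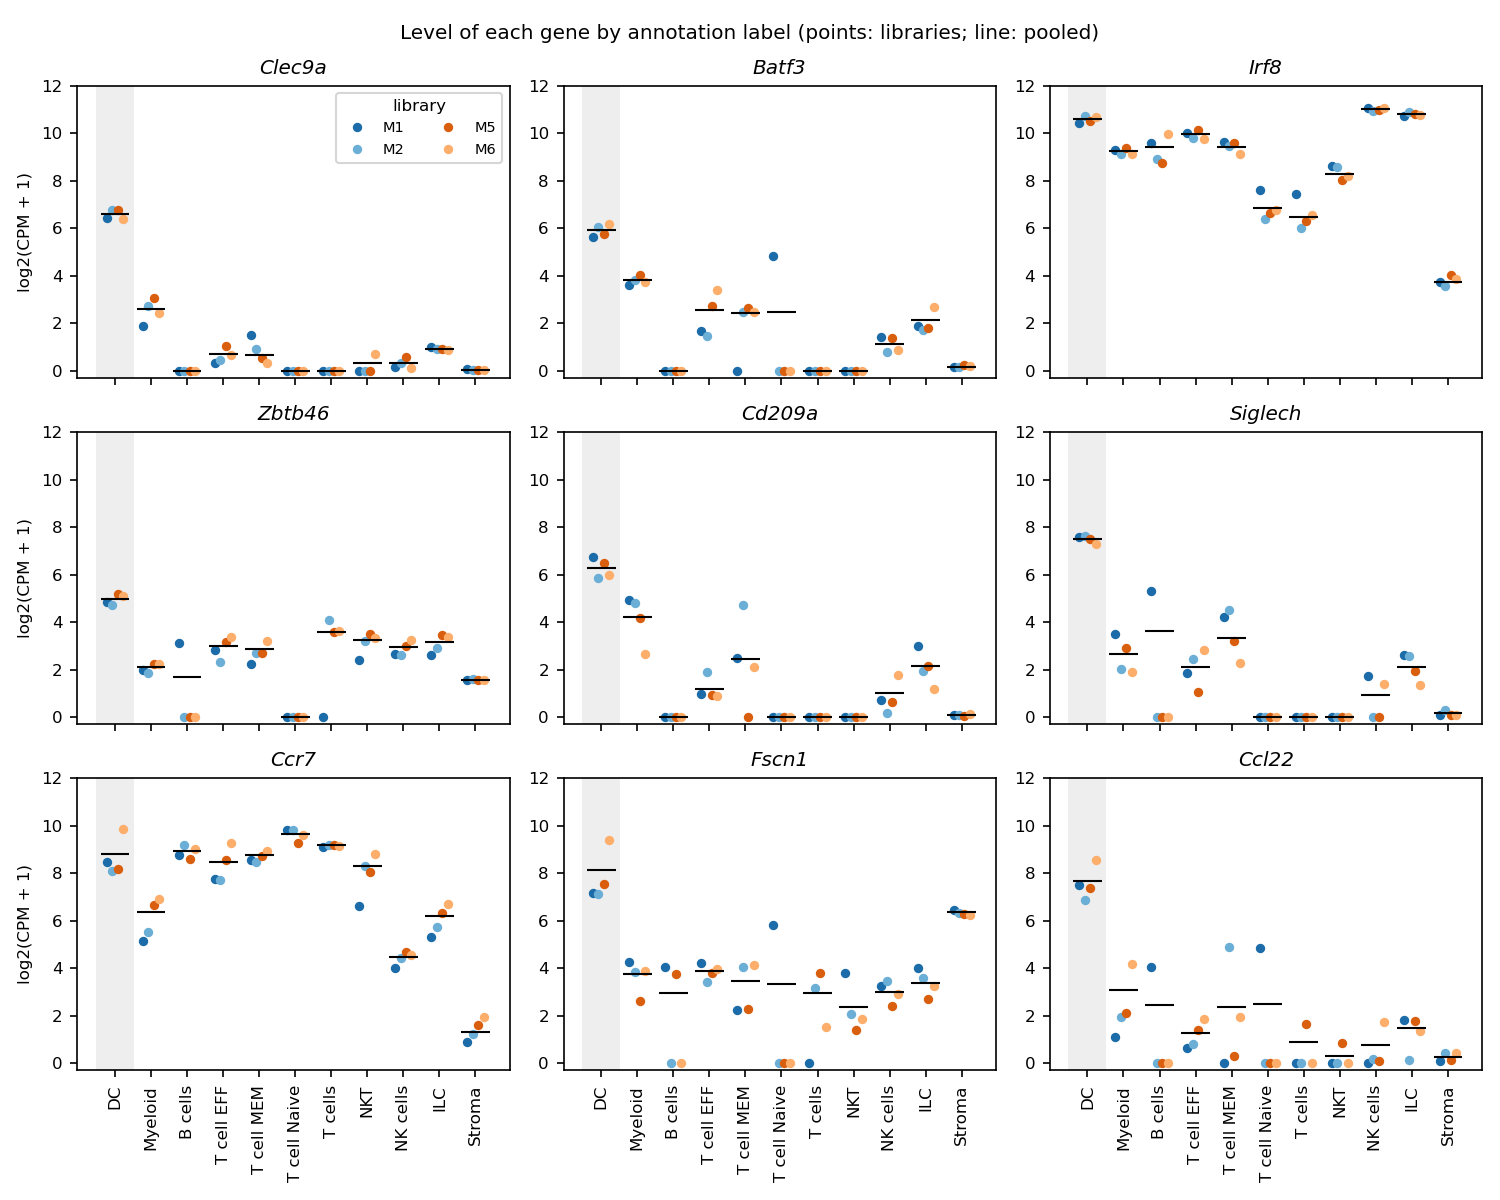
Level of each of the 9 genes, as log2(CPM + 1), in the 11 cell labels of at least 50 cells, with 1 point for each of the 4 libraries and a line for the pooled level. Clec9a, Siglech and Ccl22 stand clear of the other labels in DC, Irf8 is higher in NK cells and ILC, and Ccr7 is higher in naive T cells in 3 of the 4 libraries.

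*Clec9a*, the dead-cell receptor of cDC1 (chr6:129408862-129424763, plus strand), was at 86.8, 110, 108 and 83.8 CPM in DC cells of M1, M2, M5 and M6. Pooled over libraries it was at 97.7 CPM (95% Poisson interval 91.0 to 105, which covers counting error only) and in Myeloid cells, the next label, at 5.0 CPM. The libraries of the 2 labels did not overlap, with 2.71 to 7.39 CPM in Myeloid cells. Cells differ in depth, so shares of cells with a UMI were taken after each cell had been thinned to 2000 UMIs, which 539 of the 556 DC cells reach. *Clec9a* was then found in 16.1% of DC cells (95% exact binomial interval 13.1 to 19.5), in 0.43% of Myeloid cells and in 0 of 4218 NK cells. Without thinning, 45.7% of DC cells had it. Of all thinned cells with *Clec9a*, 79.1% were labelled DC, the highest share among the 9 genes.

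*Batf3*, the transcription factor that cDC1 need to develop (chr1:191097847-191108945, plus strand), was also found in many cells outside the label. Its level in DC was 48.7, 66.2, 54.0 and 71.5 CPM by library, 60.5 CPM pooled, against 13.0 CPM in Myeloid cells. Libraries again did not overlap between these labels, and it missed the 2-fold rule only in M1, where 1 UMI in 10 naive T cells came to 27.6 CPM. The thinned share was 10.8% of DC cells against 2.47% of Myeloid cells. Myeloid cells were more numerous, and 33.3% of the thinned cells with *Batf3* were Myeloid and 30.7% were DC.

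*Irf8*, the interferon regulatory factor that drives cDC1 and pDC development and is also used by B and NK cells (chr8:120736358-120756694, plus strand), was high in DC without being highest there. DC cells held 1394, 1690, 1486 and 1649 CPM. NK cells held 2127, 1981, 2024 and 2170 CPM, above DC in all 4 libraries, with a ratio of DC to NK cells of 0.655 to 0.853. The pooled order was NK cells at 2076 CPM, ILC at 1788, DC at 1563, T cell EFF at 1002, B cells at 693, T cell MEM at 691 and Myeloid at 606. The library values of NK cells, ILC, DC and T cell EFF did not overlap from one to the next, whereas those of B cells (436 to 1014 CPM) spanned both T cell MEM (560 to 796) and Myeloid (562 to 672). Stroma was lowest at 12.4 CPM. After thinning, 83.7% of DC cells, 96.3% of NK cells and 2.55% of Stroma cells had a UMI.

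*Zbtb46*, a transcription factor of the conventional dendritic lineage (chr2:181387762-181459426, minus strand), was sparse. It was at 27.4, 25.2, 35.8 and 33.2 CPM in DC, and 105 of the 160 DC cells with it had 1 UMI. The next label, T cells, was at 11.1 CPM from 13 UMIs, and Myeloid cells were at 3.32 CPM. DC exceeded all other labels 2-fold in M1, M5 and M6 but not in M2, where 2 UMIs in 19 T cells set the next level. The thinned share was 5.38% in DC, 1.97% in NK cells and 0.35% in Myeloid cells.

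*Cd209a*, the mouse DC-SIGN lectin used as a marker of cDC2 and monocyte-derived cells (chr8:3743397-3748984, minus strand), was at 106, 57.5, 89.2 and 62.4 CPM in DC. Myeloid cells held 29.3, 26.8, 17.1 and 5.36 CPM, so the ratio ran from 2.15-fold in M2 to 11.6-fold in M6. The change in that ratio lay mainly in Myeloid cells, which were lowest in M6. *Cd209a* no longer met the 2-fold rule when cells of high doublet score, or cells over 10% mitochondrial UMIs, were left out. It was found in 10.4% of thinned DC cells and 1.61% of Myeloid cells, and 45.5% of the thinned cells with it were DC. Its UMIs were uneven: the 10 DC cells with the most held 36.8% of them, against 16.6% for *Clec9a*.

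*Siglech* (chr7:55768178-55778925, plus strand) was at 189, 195, 181 and 157 CPM in DC and at 181 CPM pooled. Among labels of at least 50 cells, the next was B cells at 11.3 CPM, from 5 UMIs that were all in M1, and then T cell MEM at 9.04 CPM. The label Stem cells, with 37 cells, was at 14.8 CPM, from 10 UMIs that were all in M1. Detection split the DC cells sharply, since 114 of 556 cells held the gene with a median of 13 UMIs each. The share barely moved with depth, at 17.1% after thinning and 20.5% without, in contrast to *Clec9a*. Over the libraries the thinned share was 20.6%, 20.0%, 13.3% and 13.8%, with 95% intervals that overlapped between M1 (14.0 to 28.6) and M5 (7.93 to 20.4).

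*Ccr7* (chr11:99144196-99155077, minus strand) was at 358, 272, 289 and 935 CPM in DC. The M6 value lay apart from the other 3. Naive T cells, which use the same receptor to enter lymph nodes, were at 912, 907, 613 and 789 CPM from only 55 cells, above DC in M1, M2 and M5 and below it in M6. Pooled, the order was naive T cells at 795 CPM, T cells at 581, B cells at 492, DC at 456, T cell MEM at 435, T cell EFF at 359 and NKT at 312. The library range of DC (272 to 935) overlapped those of all the other labels in that order, so its place among them is not fixed by these data. Stroma was at 1.48 CPM. Only 5.01% of the thinned cells with *Ccr7* were DC and 41.0% were T cell EFF.

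*Fscn1* (chr5:142960343-142973185, plus strand) was at 143, 139, 188 and 678 CPM in DC, again highest in M6. Its UMIs were the most concentrated of the 9 genes, with 45.8% in 10 DC cells. Stroma, the next label, lay between 75.3 and 85.7 CPM in all libraries, so DC exceeded it 1.66-fold in M1, 1.74-fold in M2, 2.46-fold in M5 and 9.0-fold in M6. The share of cells depended on depth: 15.0% of thinned DC cells and 14.4% of thinned Stroma cells had a UMI, whereas without thinning 78.8% of Stroma cells did, at a median of 40692 UMIs per cell. Of all thinned cells with *Fscn1*, 91.0% were Stroma.

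*Ccl22* (chr8:94745590-94751699, plus strand), a chemokine that attracts regulatory T cells through *Ccr4*, was at 180, 116, 164 and 373 CPM in DC. Myeloid cells came next in the pooled data at 7.53 CPM, and their highest library value was 17.2 CPM, in M6. The libraries of DC and Myeloid cells did not overlap. Its thinned share was 16.1% of DC cells and 0.67% of Myeloid cells, and 68.0% of the thinned cells with it were DC. Within DC cells its UMIs were concentrated, with 39.9% in 10 cells. The receptor *Ccr4* was at 0.613 CPM in DC and 22.6 CPM in NKT. Of the *Ccr7* ligands, *Ccl19* had 0 UMIs and *Ccl21a* 1 UMI in DC cells, and both have near-identical copies in the mouse genome, so their counts are uncertain.

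**Figure D2:**
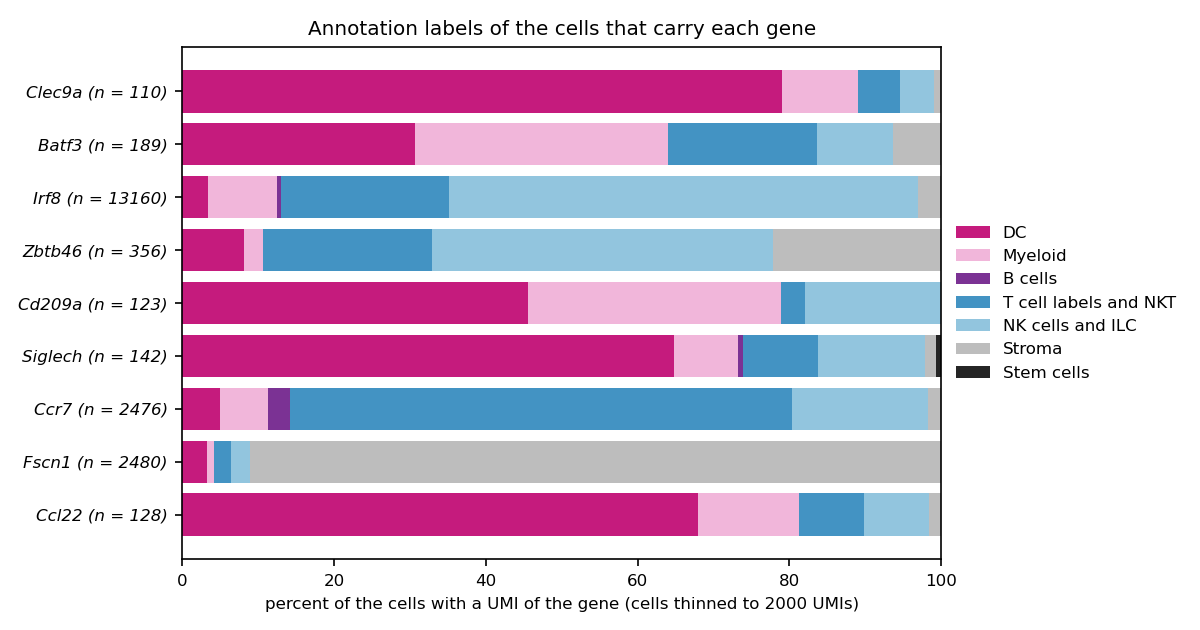
For each gene, the percentage of all cells with at least 1 UMI, after thinning to 2000 UMIs, that carried each label. DC makes up 79.1% of cells with Clec9a but 5.01% of those with Ccr7, and 91.0% of those with Fscn1 are Stroma.

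Inside DC some of the genes were found together more often than their shares gave, and others less often. Co-detection was measured in the thinned cells as the number of cells with both genes over the number given by multiplying their shares within each library. Of the 36 pairs of members, 5 had a ratio of at least 2 and 12 a ratio of at most 0.5. Over all 10421895 pairs of the genes found in at least 5% of DC cells, 2.2% had a ratio of at least 2 and 7.49% a ratio of at most 0.5. Those genes were not matched to the members by how often they were found.

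*Fscn1* and *Ccl22* had the highest ratio. Both were found in 54 cells (7, 8, 12 and 27 by library) where 14.6 would be given by their shares, a ratio of 3.70. *Ccr7* was found with *Ccl22* in 60 cells (13, 10, 11 and 26), a ratio of 2.75, and with *Fscn1* in 56 cells (9, 13, 9 and 25), a ratio of 2.72. The 3 pairs were above 1 in each setting tried. The other 2 pairs above 2 rest on few cells: *Zbtb46* with *Ccr7* in 15 (ratio 2.18) and with *Ccl22* in 10 (ratio 2.01). The first fell to 1.41 at 4000 UMIs and the second to 1.28 at 1000 UMIs. *Batf3* was found with *Fscn1* in 17 cells (0, 7, 3 and 7) and with *Ccl22* in 17 (3, 6, 2 and 6), at ratios of 1.83 and 1.73. Without thinning these pairs numbered 59 and 88 cells, at ratios of 1.23 and 1.47.

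**Figure D3:**
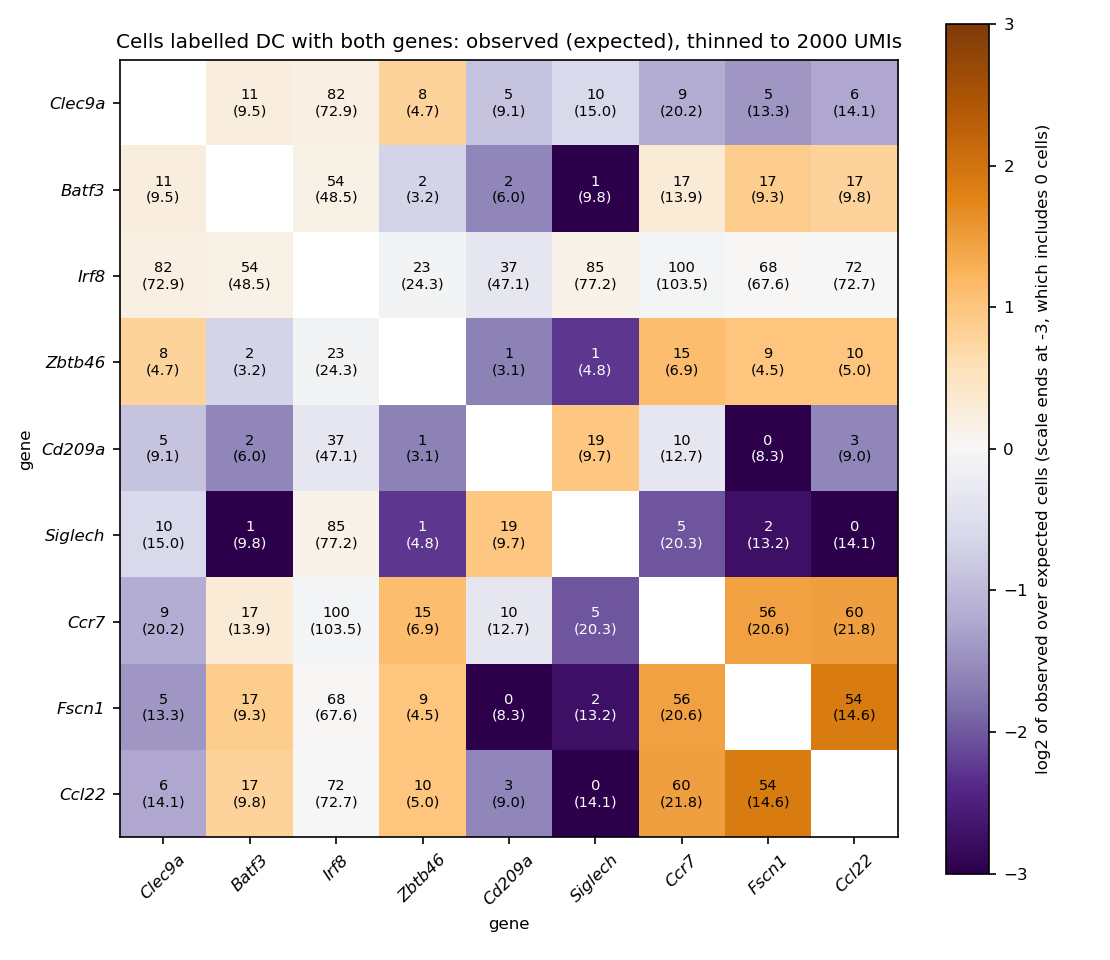
Co-detection ratio for each pair of the 9 genes in 539 DC cells thinned to 2000 UMIs, on a log2 colour scale, with the number of cells holding both genes and, in brackets, the number given by their shares. Ccr7, Fscn1 and Ccl22 form a block of ratios from 2.72 to 3.70, and Siglech has low ratios with that block and with Batf3.

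*Siglech* and *Ccl22* were found together in 0 of 539 cells thinned to 2000 UMIs, which at that depth allows a share of up to 0.557%, where their shares gave 14.1 cells. Without thinning they met in 1 cell, in M5. *Siglech* was found with *Batf3* in 1 thinned cell (ratio 0.102), with *Zbtb46* in 1 (0.207), with *Ccr7* in 5 (0.246) and with *Fscn1* in 2 (0.151). Without thinning these pairs numbered 8, 9, 16 and 14 cells, at ratios of 0.174, 0.278, 0.435 and 0.599, the last no longer at most 0.5. Among the 102 DC cells with 2 or more *Siglech* UMIs, *Zbtb46* and *Ccl22* had 0 UMIs, where a count of 0 allows up to 2.57 CPM. *Batf3* had 3 UMIs there, and *Xcr1*, the chemokine receptor of cDC1, had 0. The 12 cells with a single *Siglech* UMI differed from them: 9 had *Zbtb46*, 5 had *Batf3*, 3 had *Xcr1* and 1 had the pDC gene *Klk1*.

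The *Siglech* cells carried other genes of the pDC list. In them *Klk1*, a kallikrein, was at 1479 CPM while the 442 DC cells without *Siglech* held 0 UMIs of it, so it was at least 3362-fold higher. The gut-homing receptor *Ccr9* was at 1154 CPM against 2.35, a ratio of 492, and *Cox6a2* at 628 CPM against 1 UMI. The other 2 genes among the 5 ranked first by ratio, with 1 CPM added to both levels, were *Gm21762* and *Iglc3*. They were at least 641-fold and at least 619-fold higher. Of the 9 listed pDC genes found in at least 5% of DC cells, 7 had a co-detection ratio with *Siglech* of at least 2, with a median of 4.87, led by *Spib* (5.44), *Klk1* (5.28) and *Ccr9* (5.24), and the other 2, *Bst2* and *Irf7*, stood at 1.81 and 1.35; of all genes 8.46% had such a ratio. Of the cDC2 genes 3 of 6 reached 2 with *Siglech*: *Sirpa* (3.39), *Cd209d* (2.46) and *Clec10a* (2.12). By contrast, 8 of 9 cDC1 genes and 11 of 13 migratory genes had a ratio of at most 0.5, against 10.2% of all genes.

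The ninth cDC1 gene, the adhesion molecule gene *Cadm1*, was found with *Siglech* in 58 thinned cells, a ratio of 2.44. *Clec9a* was found in 45 of the 114 *Siglech* cells without thinning, and 42 of these 45 had no *Xcr1*. Among the 102 cells with 2 or more *Siglech* UMIs, 36 held *Clec9a*, at 50.5 CPM, and the 12 with 1 UMI were at 191 CPM. After thinning, 10 cells held both genes, a ratio of 0.665. The other 3 cells with *Siglech*, *Clec9a* and *Xcr1* were all in M5.

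Few thinned cells held both *Clec9a* and *Batf3*. *Clec9a* and *Batf3* were found together in 11 cells (1, 0, 6 and 4), a ratio of 1.16. Without thinning they met in 140 cells (34, 41, 32 and 33), a ratio of 1.37. That ratio was 2.03 where at least 2 UMIs of each gene were required. The thinned ratio was 0.627 without M5 and 1.64 without M2, and it was 1.97 at 1000 UMIs, so it gives no direction. Ratios of *Irf8* with the other 8 genes lay between 0.786 and 1.12. It was in so many DC cells that no ratio with it could pass 1.23, so that 0% of genes reached 2 and the measure tells little of it. *Xcr1*, at 152, 254, 167 and 134 CPM in DC and 8.84 CPM in Myeloid cells, was found with *Clec9a* in 34 cells, a ratio of 2.29. It was the only 1 of 9 cDC1 genes past 2, where 0.416% of all genes were. In the 171 cells with *Xcr1* and no *Siglech*, *Clec9a* was at 157 CPM, *Batf3* at 75.8, *Irf8* at 1858 and *Cd209a* at 11.6.

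After thinning, *Clec9a* met the migratory genes in 9 cells for *Ccr7* (0.446), 5 for *Fscn1* (0.375) and 6 for *Ccl22* (0.426). Without thinning the counts were 59, 39 and 59 and the ratios 0.695, 0.719 and 0.872, none of them at most 0.5. *Batf3* did not follow *Clec9a* here. In the 73 DC cells with both *Fscn1* and *Ccl22*, without thinning, *Batf3* was at 112 CPM and present in 61.6%, compared with 60.5 CPM in all DC cells, and *Xcr1* was at 74.7 CPM. No gene of the cDC1 list reached 2 with *Batf3*, and 6 of 9 pDC genes had a ratio of at most 0.5 with it, against 12% of all genes. Of all genes, 1.47% reached 2 with *Batf3* and 7.01% with *Zbtb46*, whose partners past 2 on the migratory list numbered 4 of 13, namely *Il12b* (3.44), *Cacnb3* (2.59), *Socs2* (2.52) and *Relb* (2.11).

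*Cd209a* was found in DC cells with *Siglech* and in DC cells without it. It met *Siglech* in 19 thinned cells (5, 7, 1 and 6), a ratio of 1.96, and in 46 cells without thinning. In those 46 cells *Cd209a* was at 280 CPM, *Siglech* at 918, *Klk1* at 1183 and the related lectin *Cd209d* at 310, while *Xcr1*, *Ccl22* and the chemokine *Ccl17* had 0 UMIs. The 53 DC cells with *Cd209a* and no *Siglech* held 433 CPM of *Cd209a*, 378 of the lectin *Mgl2*, 258 of *Cd209d*, 135 of *Clec10a* and 0 UMIs of *Klk1*. *Mgl2* was at 15.8 CPM in the former and *Irf8* at 396 CPM in the latter. The stroma list summed to 876 CPM in the former, 1507 in M1 and 26.3 in M6, and to 235 CPM in the latter. Of the latter, 4 cells had a doublet score over 0.25, among 9 such DC cells in all. Over all 53 cells the T cell list summed to 353 CPM, with 1310 in M6. *Fscn1* was not found with *Cd209a* in any of the 539 thinned cells, where 8.29 cells were given by their shares, but without thinning 12 cells held both (0.579). *Cd209a* and *Ccl22* were found together in 3 thinned cells (0.332) and in 12 without thinning (0.462). Of the 6 cDC2 genes compared, *Cd209d* (20 cells, 4.13) and *Clec10a* (16 cells, 3.34) passed 2, as did 3 of 9 pDC genes and 4.86% of all genes. Of the 9 cDC1 genes, 7 had a ratio of at most 0.5 with *Cd209a*, against 9.18% of all genes.

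**Figure D4:**
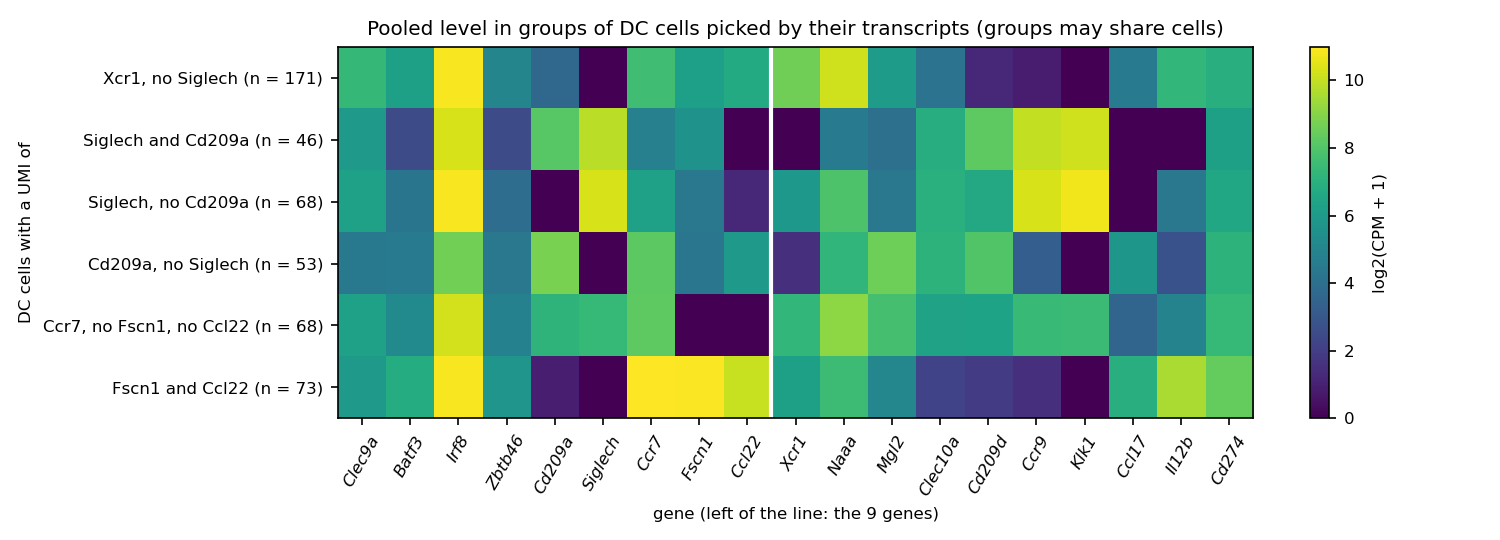
Levels of the 9 genes and of other subset genes in groups of DC cells, as log2(CPM + 1) on the colour scale, without thinning. Groups were chosen by members or by Xcr1, so a gene that defines a group is high there by construction. Groups may share cells. The groups with Siglech carry Klk1 and Ccr9 and hold at most 1 UMI of Ccl22, and the group with Fscn1 and Ccl22 carries Ccr7 and Il12b and lacks Klk1.

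The cells with *Fscn1* and *Ccl22* carried other genes of the migratory list. In these 73 cells, by construction high in both, *Ccr7* was at 2029 CPM, the interleukin 12 subunit gene *Il12b* at 767 CPM (505, 619, 126 and 1219 by library), *Cd274*, which encodes PD-L1, at 339 CPM and *Ccl17* at 117 CPM. *Siglech* and *Klk1* had 0 UMIs and *Cd209a* was at 0.923 CPM. On the list of other migratory genes, 11 of 13 had a co-detection ratio of at least 2 with *Fscn1* (median 2.75), 10 of 13 with *Ccl22* (2.73) and 8 of 13 with *Ccr7* (2.34). The corresponding shares of all genes were 4.62%, 3.42% and 2.43%. The calcium channel subunit gene *Cacnb3* and the cytokine signalling inhibitor *Socs2* led with *Fscn1* (4.84 and 4.46) and with *Ccl22* (3.81 and 3.85). With *Ccr7* the leaders were *Cacnb3* (3.18), *Il15ra* (3.14) and *Il12b* (3.01).

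The share of DC cells with at least 2 of *Ccr7*, *Fscn1* and *Ccl22* was 11.5%, 14.0%, 14.1% and 26.2% in M1, M2, M5 and M6. The 95% interval of M6 (18.8 to 34.6) lay above that of M1 (6.55 to 18.2) and overlapped those of M2 (8.88 to 20.6) and M5 (8.55 to 21.3). For all 3 genes together the shares were 5.34%, 3.33%, 5.47% and 16.9%. Without thinning the first share was 18.6%, 21.6%, 24.8% and 32.1%, with M6 again highest. In these cells M6 was also highest for the neutrophil list, at 376 CPM against 117 pooled, and for the T cell list, at 420 against 269. It was highest for the B cell list too (4.40 CPM), but not for the macrophage, NK or stroma lists. Cells with *Clec9a* or *Xcr1* made up 26.0%, 32.0%, 24.2% and 23.8%, and cells with *Cd209a* and no *Siglech* 9.92%, 4.0%, 7.81% and 6.15%. Since the libraries carry no treatment name, differences between treatments and between animals cannot be told apart here.

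**Figure D5:**
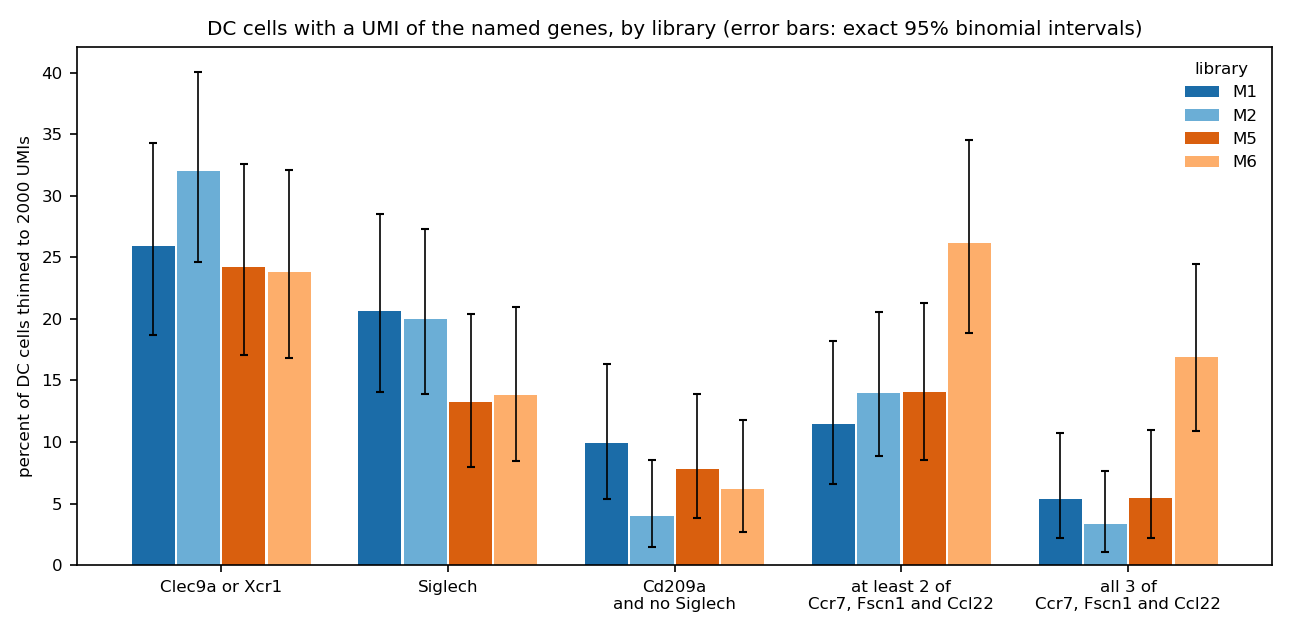
Percentage of thinned DC cells in each library that hold the genes named, with 95% exact binomial intervals as error bars, which cover counting error only. Cells with at least 2 of Ccr7, Fscn1 and Ccl22 make up 26.2% in M6 and between 11.5% and 14.1% in the other libraries.

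When found alone, the 3 migratory genes kept other company. In 28 cells with *Fscn1* but neither *Ccr7* nor *Ccl22*, *Fscn1* was at 125 CPM, compared with 1957 in the 73 cells chosen for holding both it and *Ccl22*, 46.4% held *Siglech*, and the stroma list summed to 1143 CPM. Among *Siglech* cells the stroma list stood at 1575 CPM in the 14 with *Fscn1* and at 31.0 CPM in the 100 without. In the 68 cells with *Ccr7* alone, *Ccr7* was at 306 CPM, *Cd209a* at 139, *Siglech* at 162, and the T cell list at 669 CPM against 266 in all DC cells. The 32 cells with *Ccl22* alone held *Xcr1* at 522 CPM, *Clec9a* at 176 and the lysosomal amidase *Naaa* at 1365 CPM, and 0 UMIs of *Siglech*.

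Cells that held a pair of subset genes were then followed over all labels. Of 59 thinned cells with *Fscn1* and *Ccl22* in all labels, 54 (91.5%) were DC, although *Fscn1* by itself was mostly in Stroma. Without thinning, 73 of 171 (42.7%) were DC and 53 were Stroma. *Cd209a* with *Mgl2* or *Clec10a* was found in 45 thinned cells, 24 of them DC (53.3%) and 16 Myeloid. Of 36 thinned cells with *Clec9a* and *Xcr1*, 34 (94.4%) were DC, and of 23 with *Siglech* and *Cd209a*, 19 were. Without thinning, 140 of 190 cells of the first pair (73.7%) were DC and 28 were Myeloid. For the second pair 46 of 75 (61.3%) were DC. At least 2 of *Ccr7*, *Fscn1* and *Ccl22* were found in 133 thinned cells, 88 of them DC (66.2%), 14 T cell EFF, 9 Myeloid and 9 Stroma. A doublet score over 0.25 was given to 0 of the 88 DC cells, 2 of the 14 T cell EFF and 3 of the 9 Stroma cells. Without thinning, 454 of the 893 such cells were Stroma, the deepest label, and 39 of 107 T cell EFF and 23 of 72 ILC had such a score. *Cd209a* without *Siglech* was found in 40 Myeloid cells (1.57% of them) and 37 DC cells (6.86%).

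Genes were ranked by the ratio of their level in DC cells with a member to that in DC cells without it, with 1 CPM added to both. Only genes with at least 50 UMIs in the cells with the member, and a higher level there in each library, were ranked. The first 5 are given for the other members, with the folds taken from the levels as printed. These levels are without thinning, and cells with a member were mostly deeper. For *Clec9a* the medians were 14740 UMIs with it and 7540.5 without, and for *Cd209a* 9551 and 9547. For *Clec9a* they were *Gzmg*, *Xcr1* (299 against 19.5 CPM, 15.3-fold), *Gzmf*, *Gzmc* and the integrin gene *Itgae* (165 against 14.0, 11.8-fold). *Gzmg* and *Gzmf* rest on few cells, since 2 cells held 81.3% of the *Gzmg* UMIs and 83.7% of those of *Gzmf*. *Gzmc* was less concentrated, with 57.3% in 2 cells, whereas 2 cells held 7.09% of the *Xcr1* UMIs. For *Cd209a* the genes were *Cd209d* (278 against 11.4, 24.3-fold), *Ecscr*, *Apol9a*, *Cd7* (262 against 50.5, 5.19-fold) and *Prrx1*. For *Ccr7* they were the amino acid oxidase gene *Il4i1* (171 against 3.73, 45.9-fold), *Mreg*, *Spic*, *Il12b* (362 against 20.1, 18.0-fold) and *Cacnb3* (221 against 13.3, 16.7-fold). For *Ccl22* they were *Nudt17*, *Ccl17* (133 against 3.41, 39.1-fold), *Il12b* (470 against 15.8, 29.7-fold), *Fscn1* (820 against 29.1, 28.2-fold) and *Tmem150c*.

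*Fscn1* shared *Nudt17* and *Tmem150c* with *Ccl22* among its 5 genes, beside *Slc27a3* and the extracellular matrix genes *Ogn* and *Aspn*, of whose UMIs 2 cells held 48.0% and 79.3%. For *Batf3* the genes were *Gzmf*, with 84.3% of its UMIs in 2 cells, *Tmem150c*, *Nudt17* (37.0 against 7.55, 4.90-fold), *A530099J19Rik* and *St3gal5*. For *Zbtb46* they included *Rab26* (24.5 against 7.82, 3.14-fold), *Gzmf*, with 87.9% of its UMIs in 2 cells, *Slc4a8* and *Adgrg6*. The 33 DC cells without *Irf8* held 0 UMIs of *Klk1*, *Xcr1*, *Cox6a2*, *Gzme* and *Ly6d*, which puts *Klk1* at least 28.4-fold and *Xcr1* at least 21.2-fold higher with it. In the cells with *Irf8*, 2 cells held 84.0% of the *Ly6d* UMIs and 60.4% of those of *Gzme*.

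Genes most like each member were sought over 44 profiles, from 11 labels in 4 libraries. They were named by the Pearson correlation of log2(CPM + 1) over 15358 genes. Each label held at least 50 cells in all, but some profiles held fewer, such as 10 naive T cells in M1. The profiles share libraries, depth and labels, so the values are descriptions. *Clec9a* was closest to *Gcsam* (0.980), *Rtn1* (0.977) and *Ffar4* (0.971), *Siglech* to *Klk1* (0.971), *Cox6a2* (0.951) and *Gapt* (0.939), and *Cd209a* to *Timd4* (0.954), *Klra17* (0.938) and *Grk3* (0.935). *Ccl22* was closest to *Il12b* (0.892), *Bcl2l14* (0.879) and *Stxbp6* (0.873), and *Fscn1* to *Psma7* (0.869), *Cacnb3* (0.860) and *Txndc17* (0.809). *Ccr7* was closest to *Cytip* (0.929), *Il21r* (0.905) and *Grap2* (0.879), and *Irf8* to *Fam49b* (0.909), *Capzb* (0.908) and *Sh3bgrl3* (0.889). For *Batf3* the genes were *Grk3* (0.890), *Timd4* (0.887) and *Gm20703* (0.859), and for *Zbtb46* *Rab26* (0.868), *Slc25a45* (0.844) and *Tspan2* (0.844). *Rab26* was thus named for *Zbtb46* by both measures, as were *Il12b* for *Ccl22* and *Klk1* and *Cox6a2* for *Siglech*.

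The other genes of each subset were counted by the same rule. By the rule of 2-fold in every library, 5 of 11 other cDC1 genes, 2 of 10 cDC2 genes, 2 of 10 pDC genes, 3 of 17 migratory genes and 1 of 7 genes of conventional dendritic cells were higher in DC. Over all genes it was 133 of 15977 (0.832%). The median log2 ratio of DC to the next label was taken as for the members. It was 1.29 for cDC1, -1.90 for cDC2, -0.27 for pDC, 0.018 for migratory and 0.51 for the genes of conventional cells. For all genes it was -0.89. The highest levels in DC belonged to *Id2* (747 CPM), *Naaa* (644) and *Ppt1* (371) on the cDC1 list, *Klf4* (262, with 891 in Stroma), *Mgl2* (122) and *Ltb* (97.6) on the cDC2 list, *Bst2* (702), *Irf7* (312) and *Tcf4* (249) on the pDC list and *Cd83* (474), *Traf1* (351) and *Marcksl1* (253) on the migratory list. Among labels of at least 50 cells, only *Naaa*, *Ppt1* and *Mgl2* of these were highest in DC. *Ltb* was at 1249 CPM in NKT and *Bst2* at 1004 in Stroma. *Cd74*, the invariant chain of MHC class II, was at 10765 CPM in DC and 11845 in B cells, *H2-Aa* at 5769 and 4323, and *H2-Ab1* at 4507 in DC.

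Few DC cells lacked all members without thinning. Only 10 of 556 (1.80%) had no UMI of any of the 9 genes, and 53 (9.53%) had none besides *Irf8*. In the thinned cells these numbers were 33 and 173 of 539 (6.12% and 32.1%). *Irf8* by itself was in 523 of the 556 DC cells without thinning, and in 99.2% of NK cells and 95.7% of ILC. Holding a member was thus not particular to DC.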

How the data were processed

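Single-cell 3′ libraries of tumor infiltrates were sequenced by the authors. Per the labels, Cell Ranger 3.0.2 was used with mm10, and the authors kept cells with more than 500 UMIs. The deposited values are raw UMI counts for 31053 genes in 33961 cells, beside a table of library and cell label. The labels came from correlation with sorted ImmGen populations. Depth ranged from 158337797 to 315577167 UMIs per library. All rows had a gene name and all columns were used.

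Counts were summed by label and library, divided by the total UMIs and given as CPM, with exact Poisson intervals. For shares and co-detection each cell was thinned to 2000 UMIs in a single random draw. This leaves out 17 DC cells, and the intervals are exact binomial intervals at 95%. A count of 0 allows up to 3. Genes needed 10 UMIs in every library for the 2-fold rule and 5% of DC cells for co-detection. Doublets were scored with scrublet in scanpy, and cells over 0.25 (9 DC cells) stayed in. The scripts (Python 3.11.15, numpy 2.4.6, scipy 1.17.1, pandas 2.3.3, scanpy 1.11.5, matplotlib 3.10.9) were tested on simulated data. Positions are from GENCODE M21 (GRCm38) and promoters from RefSeq GRCm38.p6.

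The members and lists were chosen with earlier results of these data known. Named were the members, *Xcr1* and the 3 highest genes of each list by CPM in DC or by co-detection. Also named were the 5 genes ranked first by ratio with each member and the 3 of highest correlation. One gene that the rule names is not reported here. Motifs, and other genes shown in groups of DC cells, were chosen after values were seen. No test was run, since libraries could not be tied to treatments and the labels used the members.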

Additional observations from a re-analysis of the deposited data

How the results depend on the processing

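At 1.5-fold, 7 members and 222 of all genes were higher in DC in every library, and at 4-fold 2 members and 47 genes, against 4 and 133 at 2-fold. Comparing only labels of at least 50 cells in the library, chosen after seeing the data, gave 6 members, adding *Batf3* and *Zbtb46*, and 216 genes. Leaving out doublet scores over 0.25 gave 5 members and 140 genes. Leaving out cells over 10% mitochondrial UMIs gave 3 members and 127 genes. Neither set of members held *Cd209a*, and the cause was not tested. Leaving out 1 library gave 4 to 5 members and 151 to 180 genes. Member pairs with a co-detection ratio of at least 2 numbered 3 at 4000 UMIs, 2 without thinning and 4 to 8 with 1 library left out (8 without M1), against 5. Of the 2 without thinning, 1 was among those 5, *Fscn1* with *Ccl22* (2.25). The other was *Cd209a* with *Siglech* (2.22). Pairs at most 0.5 numbered 6 without thinning and 11 to 14 with 1 library left out, against 12. Over all settings the ratio was 2.25 to 4.17 for *Fscn1* and *Ccl22*, 1.99 to 3.19 for *Ccr7* and *Ccl22*, 1.82 to 3.18 for *Ccr7* and *Fscn1*, 1.67 to 2.33 for *Cd209a* and *Siglech*, 1.41 to 2.38 for *Zbtb46* and *Ccr7* and 1.28 to 2.35 for *Zbtb46* and *Ccl22*. Of 468 co-detection ratios 451 stayed within the counting interval, as did 41 of 72 levels in DC and 59 of 90 shares. That interval is wide for pairs found in few cells, and the settings share cells. The count of 451 is therefore no measure of how stable the ratios are. No paired analysis was possible because the libraries could not be tied to samples or replicate numbers, and the treatment comparison in edgeR was not run for the same reason. Depth limits the sparse genes: *Zbtb46* had 1 UMI in most cells that held it.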

Other observations

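*Cd209a* marked a small set of cells inside the Myeloid label. The 83 Myeloid cells with *Cd209a* held 146 CPM of *Clec10a*, 111 of *Cd209d*, 120 of *Mgl2* and 23.8 of *Flt3*, the receptor for the growth factor of dendritic cells. The 2597 Myeloid cells without it held 10.3, 0.690, 22.0 and 2.46 CPM. *Lyz2*, the lysozyme gene of macrophages and monocytes, was at 4554 and 6735 CPM. These cells were chosen by *Cd209a* after values had been seen, and no test was run.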
